A study of Bos taurus with 11 samples.

Results

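The bovine miRNAs miR-11971 to miR-12067 were 76 of the 796 miRNAs listed in a small RNA sequencing count table of the mammary gland of dairy cows. They were chosen by name alone, as every listed miRNA called bta-miR- with a number in that range and any suffix, and no measured value entered the choice. The 76 carried 74 of the 97 numbers in the range, since 2 of the numbers were listed in a pair of forms, miR-11986b and miR-11986c, and miR-12002a and miR-12002b. The biopsies came from 5 Holstein and 6 Montbéliarde cows, which were at mid-lactation, received the same diet and were sampled in the rear udder. The library of each cow was made from total RNA of a part of the biopsy with its cells unsorted. Secretory epithelium, supporting cells, vessels and blood were thus sequenced together. Montbéliarde 2 and 5 had the lowest levels of epithelial miRNAs, which are given with the comparison of the breeds.

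miRNAs are short RNAs that are cut from hairpin precursors by Drosha and Dicer, are carried by Argonaute proteins and repress mRNAs that pair with their seed, the bases near the 5′ end. Many animal miRNAs lie inside other genes, and some are made from the transcript of that host gene. The registry miRBase numbers miRNAs in the order in which they are named, and a letter after the number marks closely related mature sequences, so a run of numbers reflects when miRNAs were registered and not a family with a common seed or function.

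At least 1 read was counted for 71 of the 76 miRNAs (93.4%), but the level of most was very low. The 71 miRNAs held 3727 of the 112475288 reads counted in the 11 libraries, which is 33.1 reads per 1000000 counted reads (RPM), and the median miRNA of the set had 12 reads in all 11 libraries together. Only 14 of the 76 reached 10 reads in any library. Counted in every library were 19 of the 76 (25%), and 3 of them, miR-11986b, miR-11986c and miR-11977, had at least 10 reads in each library.

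The 19 miRNAs found in all 11 libraries were, from the highest total down, miR-11986b, miR-11981, miR-11986c, miR-11977, miR-12014, miR-11978, miR-12044, miR-11989, miR-12029, miR-11992, miR-12035, miR-11973, miR-11971, miR-11991, miR-11995, miR-12012, miR-12051, miR-11999 and miR-12003. Their totals ran from 20 to 842 reads. The 5 found in 10 libraries, with totals of 18 to 62 reads, were miR-12036, miR-11984, miR-12032, miR-11982 and miR-12006. A further 17 were found in 6 to 9 libraries with 9 to 29 reads, led by miR-12005, miR-12059 and miR-12053. The largest class, 26 miRNAs led by miR-12017 and miR-12002b, was found in 2 to 5 libraries with 2 to 10 reads.

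miR-11983, miR-12034, miR-12011 and miR-12047 were found in 1 library only, with 1 or 2 reads. No read was counted for miR-12007, miR-12008, miR-12009, miR-12018 and miR-12058. A count of 0 over all libraries allows a level of up to 0.0267 RPM (3 reads of all counted reads, counting error only), so expression below that level was not detectable at this depth.

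How regularly a miRNA was found followed its total. Of the 16 miRNAs with 50 reads or more, 15 were found in every library, and the exception was miR-12036, which had 62 reads and none in Montbéliarde 2. Of the 13 with 20 to 49 reads, 4 were found in every library. None of the 12 with 10 to 19 reads was found in every library. The 30 with 1 to 9 reads could not be, having fewer reads than there were libraries, and they reached at most 7 libraries. Of the 836 pairs of a miRNA and a library, 474 (56.7%) had a read, 134 had exactly 1 read and 92 had 10 or more.

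**Figure D1:**
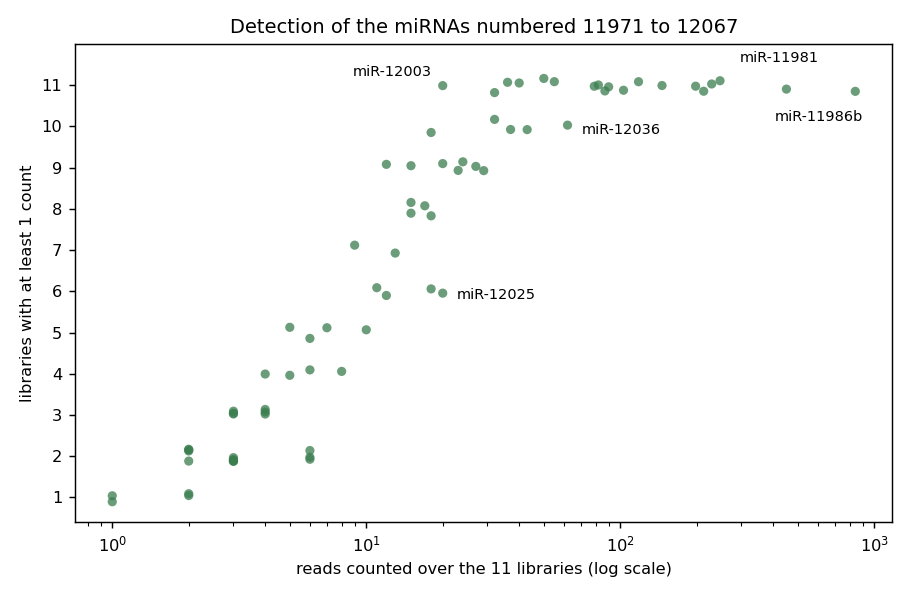
Number of libraries with at least 1 count (vertical axis, shifted slightly at random so that points do not overlap) against the reads counted over the 11 libraries (horizontal axis, log scale) for the 71 miRNAs with a read. miR-12003 was found in all 11 libraries with 20 reads, miR-12025 in 6 libraries with the same total, and miR-12036 missed 1 library with 62 reads.

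At equal totals the miRNAs still differed in how evenly the reads were spread. miR-12003, the member with the lowest total among those found everywhere, had 1, 1, 2, 2 and 2 reads in Holstein 1 to 5 and 3, 3, 1, 2, 1 and 2 reads in Montbéliarde 1 to 6. miR-12025, with the same 20 reads, had 2, 6, 6, 1 and 0 reads in the Holstein libraries and 0, 0, 3, 0, 2 and 0 in the Montbéliarde libraries, and was picked for this contrast after its values were seen. A variation index was taken as the chi-square of a miRNA's counts over the libraries divided by its degrees of freedom. The expected counts were in proportion to the DESeq2 size factors of the libraries. The index is about 1 where counting error alone acts, and it was 0.774 for miR-12003 and 2.62 for miR-12025. For the 41 miRNAs with at least 10 reads in all, the median index was 1.61, with a range of 0.310 to 12.2, and 15 were above 2. The 280 other miRNAs in the same range of totals had a median index of 1.85, and 129 of them were above 2. Only the range of totals was matched, and the index can rise with the total, so the medians do not compare like totals.

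The number of miRNAs of the set found in a library was 43.4 ± 4.04 in Holstein (SD, n = 5) and 42.8 ± 5.56 in Montbéliarde (SD, n = 6), with a lowest value of 35 in Montbéliarde 1 and a highest of 49 in Holstein 3, Montbéliarde 4 and Montbéliarde 5. The libraries held 7431936 to 16808976 counted reads in Holstein and 6087865 to 11395785 in Montbéliarde, and Montbéliarde 1 was the smallest. With every library thinned to the depth of the smallest, the expected numbers were 36.4 ± 2.44 and 37.3 ± 2.33, a gap below the spread within either breed.

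The share of counted reads that fell on the set was 34.9 ± 4.45 RPM in Holstein (SD, n = 5) and 32.4 ± 8.45 in Montbéliarde (SD, n = 6). The breeds overlapped, since Montbéliarde held both the lowest and the highest value. The lowest was 21.7 RPM in Montbéliarde 2 (exact Poisson 95% interval 18.8 to 24.9) and the highest 44.8 in Montbéliarde 6 (40.9 to 49), and these intervals, which cover counting error only, did not overlap. The set thus had few reads everywhere. It made up 6.78 to 8.58% of the miRNAs detected in each library, beside 76 of the 796 listed and 71 of the 754 detected in any library.

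Beside the set's 93.4% with a read and 25% in every library, 104 of the 113 miRNAs (92.0%) of the bovine families miR-2284 and miR-2285, which have many members, had a read and 36 (31.9%) were found in every library. Of the 131 miRNAs from miR-2286 to miR-2490, 113 (86.3%) had a read and 21 (16%) were found everywhere. The other 460 known miRNAs had a read in 97.8% of cases and were found everywhere in 70.2%, with a median total of 636 reads. Over all 796 listed miRNAs, 94.7% had a read and 52.0% were found in every library. The median totals of the 2 numbered groups were 11 and 6 reads, beside 12 for the set, but their highest members were far above the set's highest mean of 72.9 normalized reads, at 3304 and 630. These shares are descriptions, and their differences were not tested.

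Within the set, the lower numbers held the more abundant miRNAs. All 25 miRNAs from miR-11971 to miR-11999 had a read, 12 of them (48.0%) in every library, and their median total was 32.0 reads. Of the 51 from miR-12000 to miR-12067, 46 (90.2%) had a read and 7 (13.7%) were found in every library, with a median total of 6 reads. The 4 miRNAs with a mean above 20 normalized reads all belonged to the lower numbers. The split at miR-12000 was made after the values were seen and was not tested.

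A few miRNAs held most of the reads. The highest, miR-11986b, held 22.6% of the set's reads, the 5 with the most reads 53.2% and the 10 with the most reads 70.8%. Levels below are normalized read counts, the raw counts divided by the size factor of the library, and a count of 3 corresponds to 1.81 to 5.0 normalized reads depending on the library. On that scale the mean fell 8.69-fold from the first to the tenth miRNA. Among all listed miRNAs miR-11986b ranked 230, and the most abundant miRNA of the table had a mean of 2339520.

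miR-11986b was the highest member in 11 of 11 libraries. Its normalized read counts were 91.3, 107, 69.4, 80.5 and 67.8 in Holstein 1 to 5, and in Montbéliarde the lowest was 37.2, the median 59.5 and the highest 103. The breeds overlapped, and the 3 lowest libraries were all Montbéliarde. The means were 83.3 ± 16.5 (SD, n = 5) and 64.2 ± 26.5 (SD, n = 6), a log2 fold change, Montbéliarde over Holstein, of −0.39 with a standard error (SE) of 0.27 and an edgeR adjusted p of 0.513. The RefSeq gene of miR-11986b lies within the span of OCLN, which encodes occludin, a protein of the tight junctions between epithelial cells. The same span holds the gene of another miRNA, miR-7858, which had 26 reads in 10 libraries and a mean of 2.04 normalized reads.

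miR-11986c is listed under the same number as miR-11986b, but its gene lies elsewhere, within the long non-coding RNA gene LOC101903165. Its normalized read counts were 21.1, 19.5, 24.1, 18.5 and 18.2 in the Holstein libraries and 12.6 (lowest), 23.6 (median) and 31.7 (highest) in Montbéliarde. Holstein libraries were close together, at 20.3 ± 2.43 (SD, n = 5), and lay within the wider Montbéliarde range, at 22.8 ± 8.77 (SD, n = 6). The log2 fold change was 0.14 (SE 0.29, edgeR adjusted p 0.860). The ratio of miR-11986b to miR-11986c counts was not constant. It ran from 1.22 in Montbéliarde 5 (44 and 36 reads) to 5.53 in Holstein 2 (105 and 19 reads), with means of 4.16 ± 0.973 in Holstein (SD, n = 5) and 3.06 ± 1.27 in Montbéliarde (SD, n = 6).

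miR-11981 was the second miRNA of the set and among the 3 highest members in 9 of 11 libraries. Its gene lies within GPAM, which encodes the mitochondrial glycerol-3-phosphate acyltransferase that starts the synthesis of triacylglycerol. The normalized read counts were 70.2, 27.6, 39.8, 35 and 50.8 in Holstein 1 to 5 and 7.5 (lowest), 38.0 (median) and 67.6 (highest) in Montbéliarde. The breeds overlapped widely, and Montbéliarde 2 and 5 stood below all other libraries with 7.5 and 12.7. With means of 44.7 ± 16.6 (SD, n = 5) and 34.9 ± 22 (SD, n = 6), the log2 fold change was −0.38 (SE 0.43, edgeR adjusted p 0.732).

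miR-12014 lies within ANAPC2, which encodes a subunit of the anaphase-promoting complex, and had the highest variation index of the set, 12.2. Its normalized read counts were 8.78, 18.4, 7.84, 17.1 and 7.82 in Holstein, and 10.00 (lowest), 18.3 (median) and 55.7 (highest) in Montbéliarde. The highest value, in Montbéliarde 6, was far above the next Montbéliarde value of 20.3, and all other libraries of both breeds overlapped. The log2 fold change was 0.93 (SE 0.44, edgeR adjusted p 0.348), and it was 0.40 without Montbéliarde 6.

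miR-12044, within ELF1, the gene of an ETS-family transcription factor, had 13.2, 24.6, 11.5, 12.5 and 18.2 normalized reads in Holstein and 3.75 (lowest), 10.9 (median) and 13.6 (highest) in Montbéliarde. The breeds overlapped between 11.5 and 13.6, and the 2 highest libraries were Holstein 2 and 5. Means of 16 ± 5.46 (SD, n = 5) and 9.78 ± 3.59 (SD, n = 6) gave a log2 fold change of −0.67 (SE 0.34, edgeR adjusted p 0.366).

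The last 3 of the 10 most abundant miRNAs had means of 8.39 to 9.51 normalized reads. miR-12029 lies in no protein-coding or long non-coding RNA gene span of the annotation. It had 6.31 ± 2.79 normalized reads in Holstein (SD, n = 5) and 12.2 ± 7.09 in Montbéliarde (SD, n = 6), with a log2 fold change of 0.87 (SE 0.44, edgeR adjusted p 0.366). miR-11989, within TM9SF1, had 12 ± 3.45 and 7.41 ± 4.96 (log2 fold change −0.59, SE 0.42, edgeR adjusted p 0.524). miR-12035, within the membrane mucin gene MUC16, had 9.6 ± 5.96 and 7.39 ± 7.34 (log2 fold change −0.43, SE 0.58, edgeR adjusted p 0.789). For each of these 3 the ranges of the breeds overlapped.

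**Figure D2:**
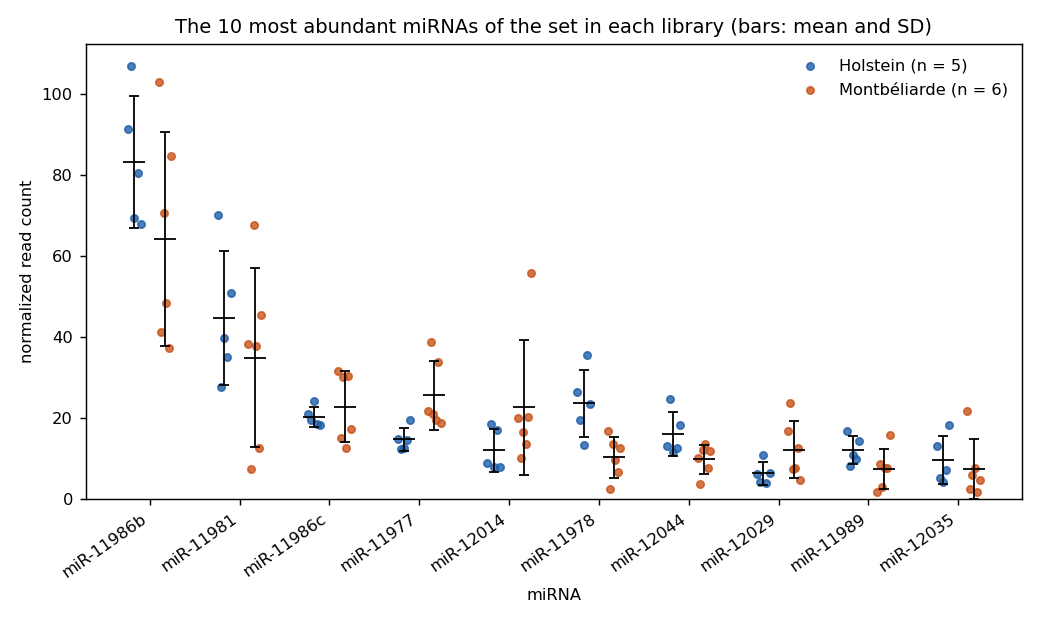
Normalized read count (vertical axis) of the 10 most abundant miRNAs of the set in each library, with Holstein in blue (n = 5) and Montbéliarde in orange (n = 6). Black bars show the mean and SD of each breed, and the points of the breeds overlap for all 10, with Montbéliarde 6 at 55.7 for miR-12014 as the point farthest from its group.

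**Figure D3:**
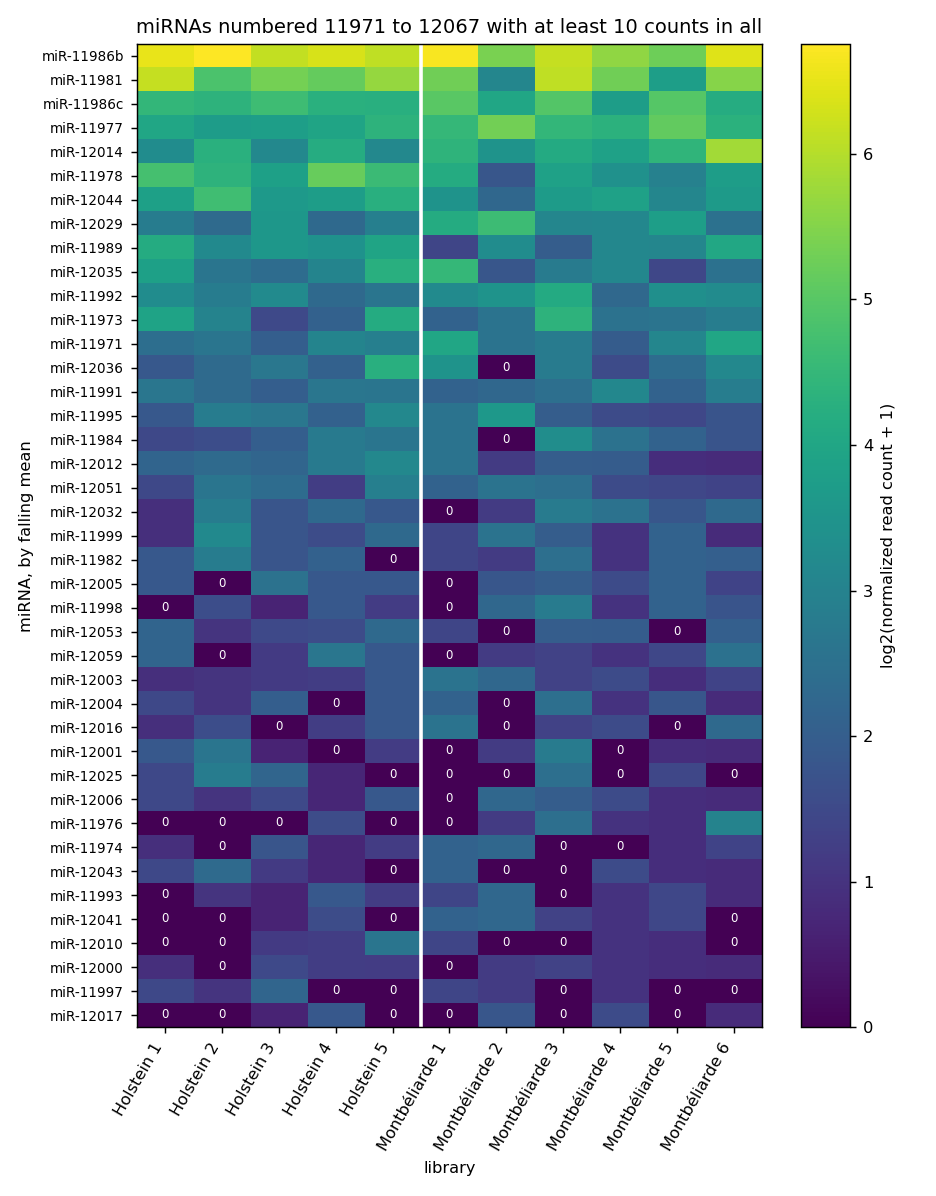
Level of the 41 miRNAs with at least 10 counts over the 11 libraries, as log2 of the normalized read count plus 1 (color), with a 0 printed where no read was counted and a white line between the breeds. Counts of 0 fill the lower rows in both breeds, while the first 13 rows, which hold 77.4% of the set's reads, have none.

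Most miRNAs of the set lie inside other genes. RefSeq genes were matched for 75 of the 76, and miR-12024 was not matched. Of the 75, 59 lie within the span of a protein-coding gene, 3 within a long non-coding RNA gene only and 13 in neither. A read was counted for 55 of the 59 (14 in every library), for all 3 (2 in every library) and for 12 of the 13 (3 in every library). Of the 10 most abundant, 7 lie within a protein-coding gene. The annotation table gives no strand or exons, so sense or antisense, and intron or exon, were not determined.

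Some further host genes are known from milk secretion, insulin signaling or epithelial cells, and their miRNAs are given here as examples, chosen for the host gene after the values were seen. miR-12061, within B4GALT1, which encodes the galactosyltransferase of lactose synthase, had 6 reads in 5 libraries. miR-12053, within IRS1, an adaptor of the insulin receptor, had 24 reads in 9 libraries. miR-11998, within ZEB1, a transcription factor that represses epithelial genes, had 23 reads in 9 libraries, and miR-12004, within the selenium carrier gene SELENOP, had 20 reads in 9 libraries. The examples say nothing of such host genes as a group, since miR-11986b in OCLN had 842 reads, miR-11981 in GPAM 451 and miR-12035 in MUC16 87.

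At the low end of the miRNAs found everywhere, miR-12051 had 36 reads, 2, 5, 7, 2 and 5 in Holstein and 2, 4, 3, 2, 2 and 2 in Montbéliarde, so no library stood out. Its gene lies within ZNF521, a zinc finger gene whose span also holds the gene of miR-378c. miR-378c had 876 reads and a mean of 75.8 normalized reads, against 3.36 for miR-12051. miR-11999, within BTK, the gene of a tyrosine kinase of B cells, had 32 reads, of which 8 were in Holstein 2. miR-12003 lies within HAPSTR1.

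Among the miRNAs that missed a library, the highest were miR-12036, within SPRY1, an inhibitor of receptor tyrosine kinase signaling, miR-11984, within NOM1, and miR-12032, within the potassium channel partner gene KCNIP1. miR-12036 had 3, 4, 9, 5 and 14 reads in Holstein and 6, 0, 4, 2, 5 and 10 in Montbéliarde. miR-11984 and miR-12032 had 43 and 37 reads, at most 9 and 6 in a library. miR-11984 was missing from Montbéliarde 2 and miR-12032 from Montbéliarde 1, the smallest library.

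Some of the rarest miRNAs could not be told apart by their counts. miR-12048 and miR-11975 had the same 3 reads in the same 2 libraries, and miR-12031 and miR-12064 the same 2 reads in the same 2 libraries. miR-11983 shared its 2 reads in 1 library with miR-2384, which is outside the set. The single read of miR-12047 fell in a library where 4 other listed miRNAs also had their only read, and that of miR-12011 in a library with 5 such miRNAs. Such matches are easily met among miRNAs with so few reads, and the sources used here do not give the treatment of reads that fit several miRNAs. No miRNA of the set with at least 10 reads had counts in a constant ratio to another listed miRNA.

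The study was designed to compare the mammary miRNAs of the breeds. Of the 41 miRNAs of the set with at least 10 reads, 0 passed an adjusted p of 0.05 in edgeR's quasi-likelihood test, where 2 of all 550 miRNAs tested (0.364%) did. At an unadjusted p of 0.05, 4 of the 41 (9.76%) passed, below the 14.2% of all miRNAs tested. DESeq2 gave 12 of the 41 an adjusted p and called 1, miR-11978, beside 22 of all 378 with an adjusted p. Of the 41 fold changes, 22 were negative and 19 positive, and their median was −0.24 on the log2 scale, against 0.03 for all miRNAs tested, but it was 0.08 without Holstein 2. The median standard error was 0.59 for the set and 0.33 for all miRNAs tested.

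None of the 41 had normalized read counts that did not overlap between the breeds (of all tested, 1.64% did with the higher values in Holstein and 0.364% with the higher values in Montbéliarde). The adjusted p-values of the set ran from 0.171 to 0.997, and the fold changes from −1.32 to 2.15 on the log2 scale. A p above the limit does not show that the breeds had the same level, and the standard errors of the fold changes were 0.27 to 1.0 on the log2 scale.

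miR-11978 had the lowest p of the set. Its gene lies within COBLL1, which encodes the cordon-bleu-like protein 1. The normalized read counts were 26.3, 19.5, 13.3, 35.6 and 23.5 in Holstein 1 to 5 and 2.50 (lowest), 11.1 (median) and 16.7 (highest) in Montbéliarde. All Holstein libraries but Holstein 3 were above all Montbéliarde libraries. Means of 23.6 ± 8.30 (SD, n = 5) and 10.3 ± 5.09 (SD, n = 6) gave a log2 fold change of −1.23 (SE 0.38, edgeR unadjusted p 0.00609, adjusted p 0.171), and the DESeq2 adjusted p was 0.0414. Over 17 other settings of the analysis its adjusted p ran from 0.0414 to 0.354.

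miR-11977, which lies in no protein-coding or long non-coding RNA gene span, was the other way round. Its normalized read counts were 14.9, 12.3, 12.7, 14.5 and 19.5 in Holstein and 18.8 (lowest), 21.3 (median) and 38.7 (highest) in Montbéliarde. The breeds overlapped only by Holstein 5, and the highest values were in Montbéliarde 2 and 5, with 38.7 and 33.8. Means of 14.8 ± 2.89 (SD, n = 5) and 25.6 ± 8.50 (SD, n = 6) gave a log2 fold change of 0.79 (SE 0.28, edgeR unadjusted p 0.0123, adjusted p 0.217, range over these settings 0.0977 to 0.353).

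The other 2 miRNAs with an unadjusted p below the limit rested on few reads. miR-12012, in no protein-coding or long non-coding RNA gene span, had 4, 4, 6, 9 and 6 reads in Holstein and 3, 1, 2, 3, 1 and 1 in Montbéliarde. Its raw counts thus did not overlap while its normalized counts did. Its log2 fold change was −1.20 (SE 0.51, edgeR unadjusted p 0.0315, adjusted p 0.309, range 0.147 to 0.494). miR-11976, within the zinc finger gene PATZ1, had 0, 0, 0, 3 and 0 reads in Holstein and 0, 1, 3, 1, 1 and 9 in Montbéliarde. Its log2 fold change of 2.15 (SE 0.98, edgeR unadjusted p 0.0453, adjusted p 0.337, range 0.231 to 0.492) ran from 1.84 to 4.46 when single libraries other than Montbéliarde 6 were left out. Without Montbéliarde 6, which held 9 of its 18 reads, it fell below the limit of 10 reads and was not tested. A fitted fold change with so many counts of 0 depends on how they are treated.

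**Figure D4:**
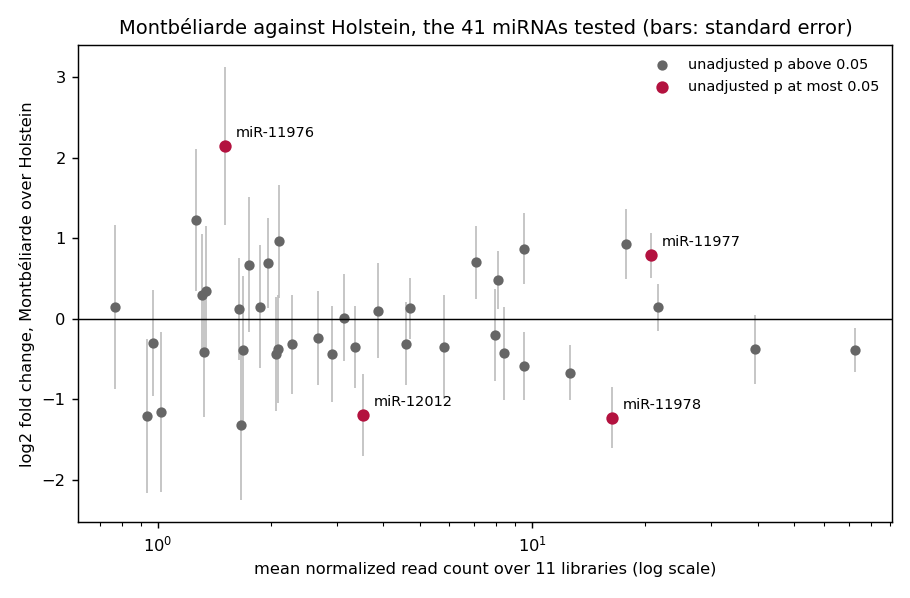
Log2 fold change, Montbéliarde over Holstein (vertical axis, bars show the standard error), against the mean normalized read count over the 11 libraries (horizontal axis, log scale) for the 41 miRNAs tested. The 4 miRNAs with an unadjusted p of at most 0.05 are red and lie on both sides of 0, and the bars are longest at low counts.

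Of the 71 detected miRNAs, 12 (16.9%) had reads in libraries of 1 breed only, against 13.0% of all detected miRNAs. In Holstein only were miR-11979, miR-12038, miR-12050, miR-12027, miR-12034 and miR-12011. In Montbéliarde only were miR-11975, miR-12028, miR-12048, miR-12052, miR-11983 and miR-12047. None had more than 6 reads or was found in more than 2 libraries, and a count of 0 allows up to 0.0561 RPM over the Montbéliarde libraries and 0.0509 over the Holstein libraries.

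Marker miRNAs of the epithelium differed in level between the biopsies. The 6 epithelial miRNAs (miR-141, miR-200a, miR-200b, miR-200c, miR-205 and miR-429) were found in every library, and their summed normalized read count was 367535 to 466746 in Holstein and 180093 to 469496 in Montbéliarde. It was lowest in Montbéliarde 5 and 2, at 180093 and 181193. The 4 miRNAs of smooth muscle and stroma were also found in every library, with sums of 1510474 to 2301695 in Holstein and 1925656 to 3861584 in Montbéliarde. That sum was highest in Montbéliarde 2. A sum gives most weight to its most abundant miRNA, so it does not show how each miRNA of a list varied. The ranges of the breeds overlapped for the summed miRNAs of leukocytes (17324 to 25868 in Holstein and 16363 to 38030 in Montbéliarde), endothelium (251466 to 330168 and 239684 to 297167) and red blood cells (23529 to 39480 and 23394 to 57161). miR-122, the miRNA of the liver, reached at most 0.603. miR-124a, of the nervous system, reached 3.62 in Holstein and 18.7 in Montbéliarde. The miRNAs of skeletal muscle, of which miR-206 was not listed, summed to 570 to 1797 in Holstein and 468 to 1562 in Montbéliarde. In such whole tissue, fewer cells of a type and less RNA per cell cannot be told apart.

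miR-11986b moved with the epithelial miRNAs at both ends of their range, but did not rise steadily between. By rising epithelial sum, miR-11986b had 84.7, 70.6, 69.4, 67.8 and 80.5 normalized reads in Montbéliarde 6, Montbéliarde 3, Holstein 3, Holstein 5 and Holstein 4. The 3 libraries lowest in epithelial miRNAs, Montbéliarde 5, 2 and 4, were its 3 lowest, at 37.2, 41.2 and 48.4 normalized reads. The 3 libraries highest in them, Montbéliarde 1, Holstein 2 and Holstein 1, were its 3 highest, at 103, 107 and 91.3. For miR-11978 the same 3 libraries were lowest, at 6.76, 2.50 and 9.68, but only 1 of the 3 highest was shared. miR-12035 shared 2 of the 3 lowest and 2 of the 3 highest. miR-11981, miR-11986c and miR-12044 shared 2 of the 3 lowest and 1 of the 3 highest, miR-11989 shared 1 of each, and miR-11977, miR-12014 and miR-12029 shared none of the lowest and 1 of the highest. These overlaps were noticed in the values and are given with no test.

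**Figure D5:**
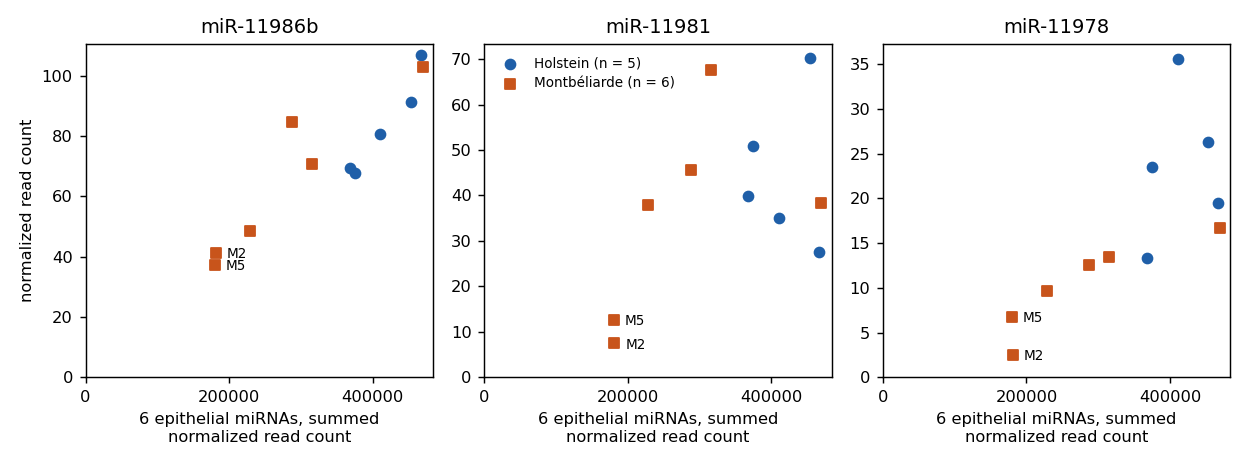
Normalized read counts of miR-11986b, miR-11981 and miR-11978 (vertical axes) against the summed normalized read count of 6 epithelial miRNAs (horizontal axes) in the 5 Holstein (blue circles) and 6 Montbéliarde (orange squares) libraries. Montbéliarde 2 and 5 (M2 and M5) lie at the lower left in each panel, at 7.5 and 12.7 for miR-11981.

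The breed values changed when the epithelial level was taken into account, in 2 alternatives added after the data were seen. The epithelial sum was itself tied to breed, since every Montbéliarde library but Montbéliarde 1 lay below the lowest Holstein value of 367535. Breed and epithelial level thus cannot be cleanly told apart in the covariate fit, and the other alternative had fewer libraries. With the epithelial sum as a covariate, 0 of the 4 miRNAs kept an unadjusted p of 0.05 or less, although 2 others of the set, miR-12014 and miR-11971, had one, and 35 of all 550 miRNAs (6.36%) did. The log2 fold change of miR-11978 was then −0.51 (edgeR adjusted p 0.862) and that of miR-11977 0.32 (edgeR adjusted p 0.915). The fold change of miR-12012 was −0.59 (edgeR adjusted p 0.904), whereas that of miR-11976 was 2.65 (edgeR unadjusted p 0.0651) and so no smaller than without the covariate. That of miR-11986b turned to 0.26. With Montbéliarde 2 and 5 left out, 2 of the 4, miR-11978 and miR-11976, kept an unadjusted p of 0.05 or less, and miR-12014 gained one. These were 3 of the 39 miRNAs of the set tested, beside 66 of all 531 (12.4%). The log2 fold change of miR-11978 was then −0.81 (edgeR adjusted p 0.319). The part of the tissue make-up in the breed values was not tested beyond these fits. The library tags of the Holstein cows all come before those of the Montbéliarde cows, so should the tags have been given in the order in which libraries were made, on which the sources are silent, that order and the breed cannot be told apart.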

How the data were processed

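Small RNA libraries of mammary biopsies from 5 Holstein and 6 Montbéliarde cows (1 per cow) were grouped by the breed in the sample records. The authors trimmed adaptors, selected reads by length and quantified miRNAs with ncPRO-seq and miRDeep2 against the bovine genome and miRBase. bcl2fastq 2.17.1.14 and DESeq2 1.18.1 are named in the submitters' processing notes. The authors deposited raw counts per miRNA and library, and a signal that is these counts divided by a DESeq2 size factor, which recomputed factors matched within 1e-06. Their deposited fold changes, p-values and breed means were not used.

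Breeds were compared over all 550 miRNAs with at least 10 counts in total, with edgeR 4.0.16 in R 4.3.3 (TMM, robust quasi-likelihood test, Benjamini-Hochberg adjustment over all tested), after tests on simulated data. DESeq2 1.42.0, other filters and scalings, a depth covariate and leaving out each library were alternatives. Library depth was 6087865 to 16808976 counted reads, so counting error limits the precision for most of these miRNAs. The members, marker lists and tests were chosen with earlier results of these data known. Named were the 10 highest by mean, those with an unadjusted p of at most 0.05, the 3 highest that missed a library, the 3 lowest found in every library, the lowest total, and those with identical counts. Others are said to be chosen later. RefSeq genes (ARS-UCD2.0) gave host genes by span, and no coordinates are given since the build differs from the authors'.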

Additional observations from a re-analysis of the deposited data

Results flagged for a closer look

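The groups looked at were 42, each of 5 or 6 libraries. They were each breed for each named miRNA with a read in it, for the number of miRNAs found and for their share of reads. The miRNAs named only for identical counts were not among them. In 7 groups a library stood apart by Dixon's 95% limit on the gap over the range (0.710 for 5 libraries, 0.625 for 6). Chance alone marks about 5% of groups only where values are continuous and normal. That rate does not hold for groups with few reads. A group with reads in 1 library only is marked by construction, so the 7 cannot be read against 5%. miR-12014 had 55.7 normalized reads in Montbéliarde 6, where the next Montbéliarde value was 20.3 (gap over range 0.775). miR-12035 had 21.7 in Montbéliarde 1, with the next at 7.75 (0.697). miR-12036 had 18.2 in Holstein 5, with the next at 5.43 (0.821). miR-12003 had 2.61 in Holstein 5, with the next at 1.32 (0.745), which corresponds to 2 reads in that library. miR-11976 had 1.98 in Holstein 4, which is 3 reads, and 0 in the other Holstein libraries (the gap was the whole range). For miR-12047, with 1.5 in Montbéliarde 3, and miR-12011, with 0.660 in Holstein 4, the value was the only read of the miRNA. The causes were not tested.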

How the results depend on the processing

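The breed results were recomputed under up to 17 other settings, 11 of which left out 1 library. With edgeR's own filter miR-12029, miR-12035, miR-12012 and miR-11976 were not tested, and without Montbéliarde 6 miR-11976 was not. The number of miRNAs of the set with an adjusted p of at most 0.05 was 0 in edgeR and 1 in DESeq2, and 0 in each of the 11 fits that left out a library. The number at an unadjusted p was 4 of 41 in the main fit, beside 14.2% of all miRNAs tested. It was 2 with edgeR's own filter on low counts, which tested 8 of the set, and 7 with library size as a covariate. With 1 library left out it was 2 (without Holstein 5) to 7 (without Montbéliarde 4). In the fits added after the data were seen it was 2 of 41 with the epithelial level as a covariate (6.36% of all miRNAs tested) and 3 of 39 without Montbéliarde 2 and 5 (12.4%). The share over all miRNAs was not worked out for the other settings, so the counts there are not read as a change in the set. The median log2 fold change was 0.05 with all miRNAs that had at least 1 count, −0.25 to 0.08 with 1 library left out, 0.22 with the epithelial level as a covariate and 0.06 without Montbéliarde 2 and 5. No fold change of the 12 named miRNAs turned its sign in the 199 values these settings gave. In the added fits, that of miR-11986b turned to 0.26 with the epithelial covariate, that of miR-11981 to 0.41, and that of miR-12035 to 0.54, while without Montbéliarde 2 and 5 miR-11981 turned to 0.14 and miR-12035 to 0.10. Detection in at least 1 library was 45 miRNAs at 3 counts and 14 at 10 counts, and 69 to 71 with 1 library left out. Detection in every library was 9 at 3 counts and 3 at 10 counts, and 19 to 21 with 1 library left out. At equal depth 68.3 and 13.8 were expected. The Holstein share without miR-11986b was 26.4 RPM. The cause of these changes was not tested, except that stricter limits and filters count fewer miRNAs by construction. Depth is a limit, since 30 of the 71 detected miRNAs had too few reads to be tested. No paired analysis was possible because the breeds hold different cows.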
